A study of Mus musculus with 14 samples.

Results

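The nuclear encoded respiratory chain genes code for the subunits of respiratory complexes I to V that are made outside the mitochondrion. Members were the protein-coding rows of the count table whose names match the Nduf a, b, c, s and v subunits, Sdha to Sdhd, the Uqcr genes, Cox4 to Cox8 or Atp5. There were 85 such rows of 54532 genes in the table. Of these, 35 were assigned to complex I, 4 to complex II, 8 to complex III, 20 to complex IV and 18 to complex V. Ndufa4 and Ndufa4l2 were placed in complex IV, to which their proteins belong, and Atp5o stood on 2 rows. The low count filter kept 80 members. The other 5 were Cox4i2, Cox7b2, Cox8c, Ndufa4l2 and the second Atp5o row, with 12, 0, 1, 5 and 0 counts over all libraries. Another 12 rows with matching names were pseudogenes or noncoding genes and were not used. How the counting treated reads shared with such copies is not stated, so levels of members with copies are less certain.

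The cells were sorted from the submandibular gland, a salivary gland, of adult mice. All mice carried the TertCreERT2/+ and Rosa26LSL-tdTomato/+ alleles, so that Cre made from the locus of Tert, the catalytic subunit of telomerase, could switch on the red reporter tdTomato. Live EpCAM+ cells were separated into tdTomato+ cells, called Tert+ here, and tdTomato- cells, called Tert-. The glands had received 15 Gy of radiation (RT) or none. There were 4 groups, Tert+ RT and Tert- RT with 4 libraries each, and Tert+ no RT and Tert- no RT with 3 libraries each. The time from RT to sorting, the sex of the mice and the activation of Cre are not given in the labels. Nothing in the labels ties a replicate to its own animal. The p-values here therefore speak for the spread among these 14 libraries, part of which may be technical. Populations follow the titles, with which the descriptions match in 14 of 14 libraries, while another label field names the opposite population in 14 of 14. Library numbers were higher in all RT libraries than in all no RT libraries, so any effect of library order cannot be told apart from RT.

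Total counts were 5520412 to 11642156 in the 8 RT libraries, against 9220126 to 15943597 in the 6 no RT libraries. Members took 0.949% to 1.35% of the counts of a library. The epithelial label was checked against marker genes: the summed level of 10 epithelial markers was 104 to 485 CPM after RT, against 147 to 605 CPM without RT. The 8 B cell markers summed to 9353 to 11639 CPM after RT, against 8069 to 13282 CPM without RT, so B cell transcripts exceeded those of the epithelial list in every library although cells were sorted as EpCAM+. The 10 acinar markers summed to 3971 to 26549 CPM after RT, against 2699.9 to 28792 CPM without RT. In such bulk libraries, fewer cells of a type and less RNA per cell cannot be told apart. CPM here is the count of a gene scaled to a common library size, with trimmed-mean (TMM) factors.

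The respiratory chain passes electrons from NADH through complex I, and from succinate through complex II, to ubiquinone. Complex III hands them on by way of cytochrome c to complex IV, which reduces oxygen. Complexes I, III and IV pump protons across the inner mitochondrial membrane, and complex V, the ATP synthase, uses the gradient to make ATP. Complexes I, III, IV and V combine nuclear encoded subunits with a few encoded by mitochondrial DNA, whereas complex II is wholly nuclear encoded. Salivary acinar and duct cells use ATP to drive ion transport and secretion, and lymphocytes raise their respiratory capacity on activation.

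Promoters of these genes are known for sites of the factors NRF1, GABPA, YY1 and the oestrogen related receptors (ERR). RefSeq windows of 300 bases, from 250 before to 50 after the gene start (GRCm38.p6), were found for 67 of the 80 tested members. For members the window nearest the deposited gene start was taken, up to 3643 bases away for Atp5d. For the comparison sets the first listed window of each gene was taken, so the shares do not rest on windows chosen alike. Each window was searched on both strands for GCGC followed by any base and TGCGC (NRF1), CCGGAAG (GABPA), AAGATGGC (YY1) and AAGGTCA (ERR). The NRF1 letters were in 16 windows (23.9%), against 10.3% of 9985 windows of tested protein-coding genes and 4.8% of all 27025 windows. GABPA letters were in 15 windows (22.4%), against 18.2% and 9.1%, YY1 letters in 9 (13.4%), against 4.6% and 2.9%, and ERR letters in 8 (11.9%), against 3.2% and 4.7%. Of the members that were lower after RT below, 13 had a window, of which 4 (30.8%) held the NRF1 letters and 3 (23.1%) the GABPA letters. Of the 54 other tested members with a window, 12 (22.2%) held the NRF1 letters and 12 (22.2%) the GABPA letters. The YY1 letters were in 0 of the 13 and 9 of the 54, and the ERR letters in 0 of the 13 and 8 of the 54. The windows of 3 members lower after RT are shown with motif matches in capitals. So is that of Uqcrh, the member with the highest log2 fold change after RT averaged over both populations. The 3 are among the 4 fallen members with NRF1 letters, so they do not stand for all 13. Ndufv1 and Atp5g1, which also fell, held none of the 4 motifs. GCGC at both ends marks NRF1 letters on either strand, and CTTCCGG is the GABPA motif on the opposite strand. Matches are descriptions of these letters only.
Uqcrc1 (chr9:108936398-108936697, plus strand): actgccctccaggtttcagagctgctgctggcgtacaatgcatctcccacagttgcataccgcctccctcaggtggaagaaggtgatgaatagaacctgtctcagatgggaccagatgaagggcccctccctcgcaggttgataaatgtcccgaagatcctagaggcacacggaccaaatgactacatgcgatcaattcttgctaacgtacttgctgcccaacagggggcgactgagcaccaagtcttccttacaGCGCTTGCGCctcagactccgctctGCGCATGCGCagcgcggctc
Cox6a1 (chr5:115348909-115349208, minus strand): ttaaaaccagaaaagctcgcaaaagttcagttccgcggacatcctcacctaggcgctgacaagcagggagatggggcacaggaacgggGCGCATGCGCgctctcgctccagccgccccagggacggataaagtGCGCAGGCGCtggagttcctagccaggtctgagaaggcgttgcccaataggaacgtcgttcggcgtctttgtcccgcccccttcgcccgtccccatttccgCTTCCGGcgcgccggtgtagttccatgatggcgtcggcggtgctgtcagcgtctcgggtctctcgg
Sdha (chr13:74350191-74350490, minus strand): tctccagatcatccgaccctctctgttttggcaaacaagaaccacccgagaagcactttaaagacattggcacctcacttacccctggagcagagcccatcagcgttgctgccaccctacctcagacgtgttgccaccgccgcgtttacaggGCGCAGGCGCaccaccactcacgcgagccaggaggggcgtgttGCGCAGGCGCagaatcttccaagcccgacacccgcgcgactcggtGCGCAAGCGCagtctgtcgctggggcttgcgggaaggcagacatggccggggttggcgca
Uqcrh (chr4:116075021-116075320, minus strand): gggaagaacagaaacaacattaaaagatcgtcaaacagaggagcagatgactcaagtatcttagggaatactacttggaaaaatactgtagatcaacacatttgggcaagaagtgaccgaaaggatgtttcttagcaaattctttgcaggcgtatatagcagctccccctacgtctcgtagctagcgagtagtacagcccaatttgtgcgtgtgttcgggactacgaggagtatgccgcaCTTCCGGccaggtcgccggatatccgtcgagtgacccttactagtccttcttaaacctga

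Members were among the more abundant genes. Their median level over the 14 libraries was 100.1 CPM, against 13.4 CPM for all 15915 genes tested, and the median member stood at percentile 87.6. Members had short deposited gene lengths, with a median of 1578 bases, against 3637 bases for all genes tested. They varied little between libraries of a group: the median coefficient of variation of members was 11.5% in Tert+ RT, 13.8% in Tert- RT, 10.8% in Tert+ no RT and 19.8% in Tert- no RT libraries. Over all genes tested the corresponding medians were 36.4%, 30.7%, 31.5% and 33.3%.

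Levels between genes are compared here per kilobase of deposited gene length. That length is a single value per gene and may differ from the length of the transcripts counted, so ranks between genes are approximate. The median over tested members was 56.9 CPM per kilobase in complex I, 92.3 in complex II, 106.5 in complex III, 67.8 in complex IV and 50.2 in complex V. The highest was Cox8a of complex IV at 451 CPM per kilobase, followed by the catalytic core of ATP synthase, Atp5b (beta) at 324 and Atp5a1 (alpha) at 311. The ubiquitous complex IV isoform Cox4i1 stood at 302 CPM per kilobase. In complex I, the leading genes were the accessory subunit Ndufa2 at 203 and the iron-sulfur subunit Ndufs8 at 155. Complex II was led by its membrane anchor Sdhd at 129.5 and the flavoprotein Sdha at 109. In complex III, the small subunit Uqcr10 stood at 146 and the Rieske iron-sulfur protein Uqcrfs1 at 125 CPM per kilobase.

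In each pair of tissue isoforms the widely expressed gene was the higher, per length. Of the muscle isoforms of complex IV, Cox6a2 stood at 10.9, Cox7a1 at 6.36 and Cox8b at 2.84 CPM per kilobase. Their widely expressed counterparts Cox6a1, Cox7a2 and Cox8a stood at 283, 99.5 and 451 CPM per kilobase. The testis isoform Cox6b2 stood at 0.527, against 268 CPM per kilobase for Cox6b1. Among the 3 genes for subunit c of ATP synthase, which code for the same mature protein, Atp5g2 stood at 61.9, Atp5g3 at 50.2 and Atp5g1 at 24.3 CPM per kilobase.

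Respiratory chain transcripts were moderately lower after RT, in members of all 5 complexes. With the RT effect averaged over Tert+ and Tert-, 17 of 80 tested members (21.2%) fell and 0 rose at an adjusted p under 0.05, against 7.0% of all 15915 genes tested that fell and 6.36% that rose. The median log2 fold change of tested members was -0.25, against -0.01 for all genes tested, and 71 of 80 were below 0 (88.8%), against 50.6% of all genes. An unadjusted p under 0.05 was reached by 34 of 80 members, against 28.9% of all genes. The median standard error was 0.12 for members, against 0.32 for all genes tested. The shares that passed therefore do not compare genes measured with like precision. The 17 fallen members were 7 of 35 in complex I, 2 of 4 in complex II, 3 of 8 in complex III, 2 of 16 in complex IV and 3 of 17 in complex V. The median log2 fold change was -0.33 in complex I, -0.38 in complex II, -0.20 in complex III, -0.18 in complex IV and -0.16 in complex V. The ranges of all 8 RT and all 6 no RT libraries did not overlap for 2 members, Cox6a1 and Sdha, both lower after RT (2.5%), against 1.33% of all genes tested that were lower and 1.82% that were higher. Dropping the library Tert- no RT replicate 1 raised the number of fallen members to 27, and dropping Tert+ no RT replicate 2 or 3 or Tert- no RT replicate 2 or 3 left 9. Without Tert- RT replicate 3 or 4 the number was 10. With the replicate numbers of the titles as a block it was 8. A total count scaling in place of TMM left 10 fallen and 1 risen, and moved the split over all genes to 671 lower and 1207 higher, against 1114 lower and 1012 higher with TMM. Of the members named here, the 7 genes Atp5a1, Atp5g1, Cox6a1, Cox6a2, Ndufv1, Sdha and Uqcrc1 fell in each of 21 alternative settings, which were other tools and scalings, no filter, a replicate block and libraries left out.

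**Figure D1:**
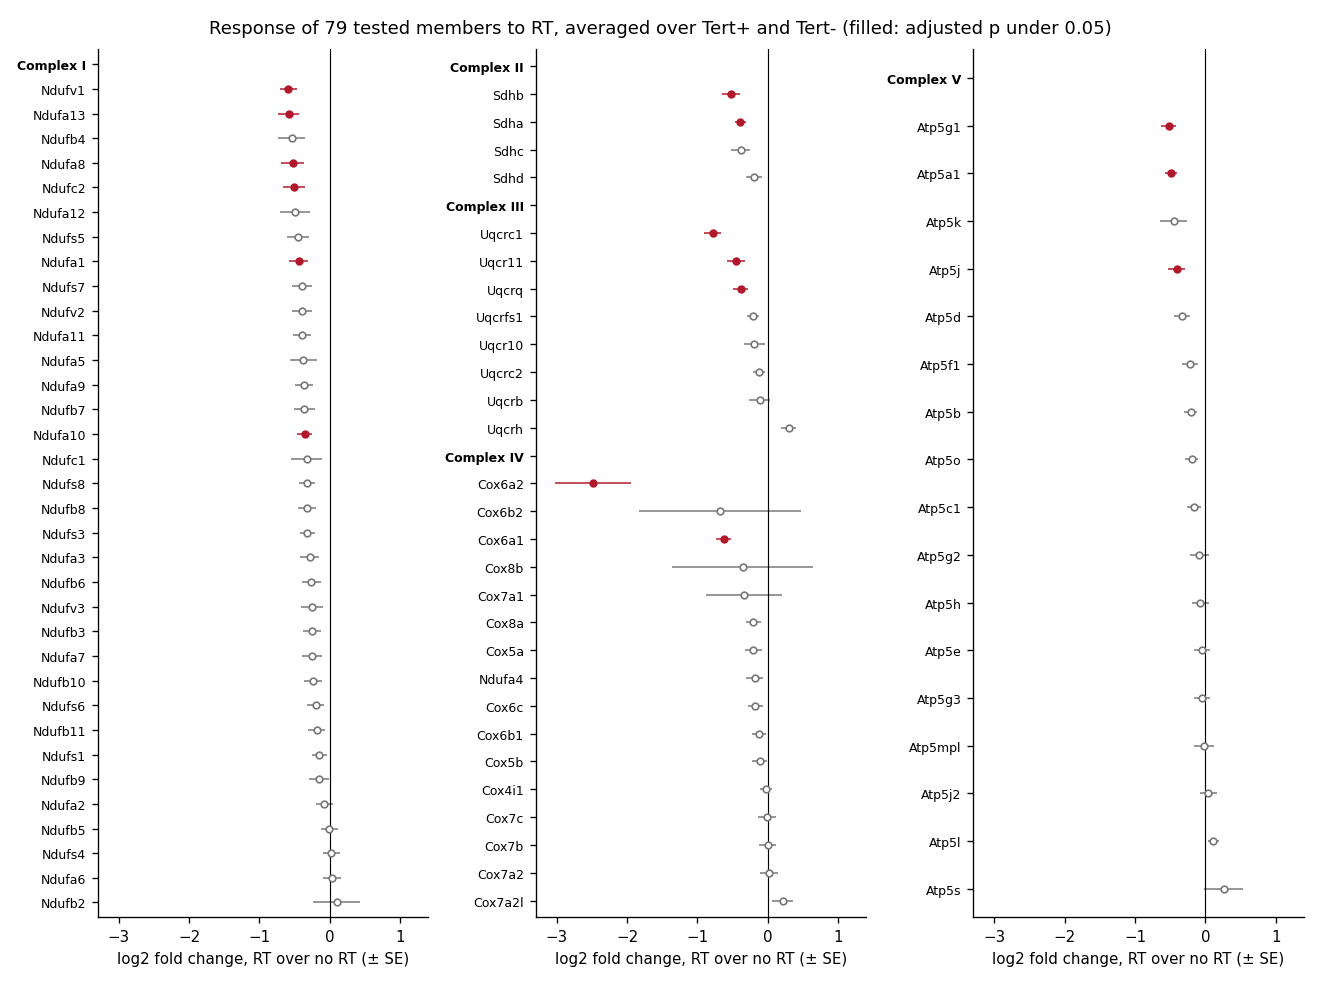
Points are log2 fold changes of RT over no RT averaged over Tert+ and Tert- with their standard errors, for 79 of the 80 tested members by complex, and filled points passed an adjusted p of 0.05. The points lie mostly left of 0, and 16 are filled.

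Summed over its members, each complex had a lower mean level in RT libraries. Complex I summed to 2832, 2596, 2702 and 2709 CPM in the Tert+ RT libraries, against 2909, 3470.1 and 3367 CPM in the Tert+ no RT libraries. In Tert- cells complex I summed to 2418, 2525, 2276 and 2266 CPM after RT, against 2359, 3296 and 3549 CPM without RT. The ranges did not overlap in Tert+ cells, whereas in Tert- cells no RT replicate 1 lay within the range of the RT libraries. Complex II summed to 828 ± 60.5 CPM in Tert+ RT, against 993 ± 45.7 CPM in Tert+ no RT, and to 710.2 ± 57.0 CPM in Tert- RT, against 997 ± 149.5 CPM in Tert- no RT libraries (SD, n = 4 after RT and 3 without). Complex III summed to 1224 ± 47.1 CPM in Tert+ RT, against 1536 ± 183 CPM in Tert+ no RT, and to 1104 ± 91.4 CPM in Tert- RT, against 1444 ± 251 CPM in Tert- no RT libraries. Complex IV had the smallest relative difference of these means: 1945 ± 116 CPM in Tert+ RT, against 2118 ± 63.8 CPM in Tert+ no RT, and 1788 ± 184 CPM in Tert- RT, against 1968 ± 301 CPM in Tert- no RT libraries. Complex V was the largest sum, with 4177 ± 189 CPM in Tert+ RT, against 5001 ± 227 CPM in Tert+ no RT, and 3862 ± 375 CPM in Tert- RT, against 4591 ± 538 CPM in Tert- no RT libraries. In Tert- no RT replicate 1 every complex was the lowest of its group, for example 4015 CPM in complex V.

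**Figure D2:**
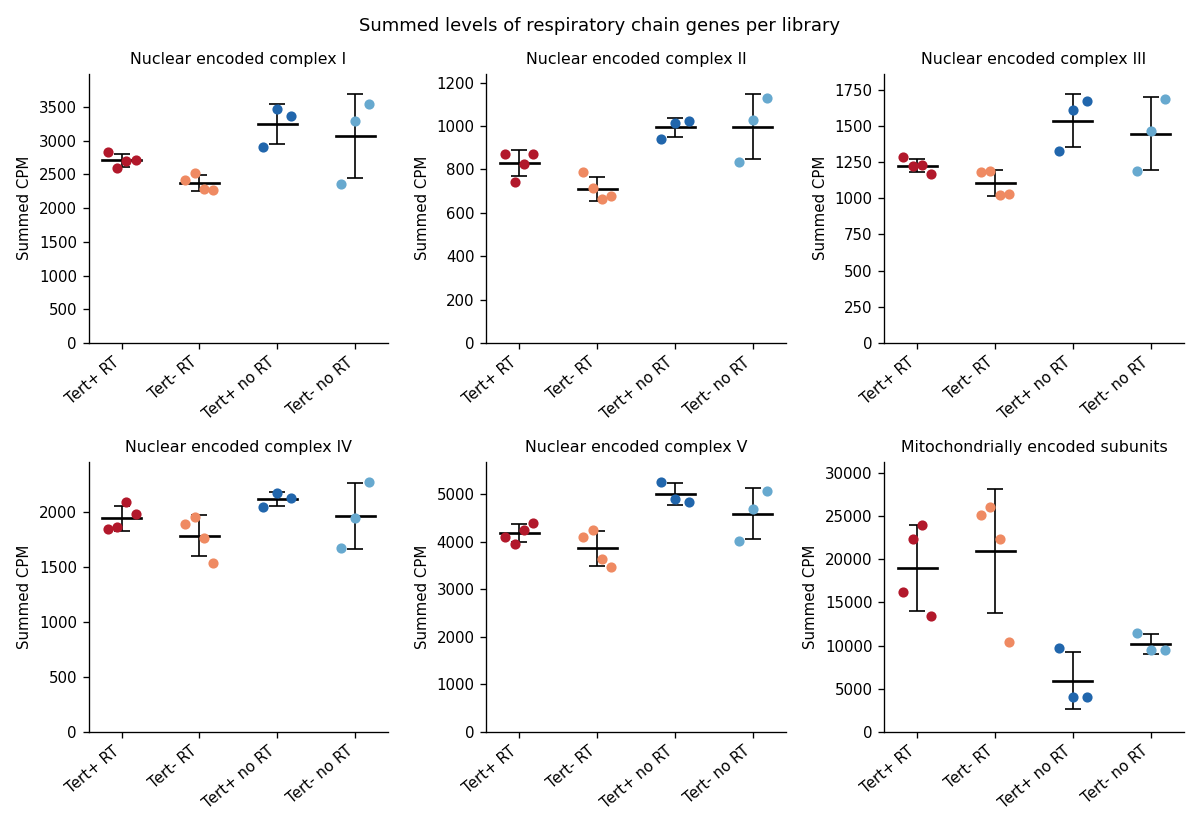
Points are libraries, with the summed CPM of the nuclear encoded members of each complex and of the mitochondrially encoded subunits on the vertical axis; bars are means with SD. The nuclear sums are lower in the RT groups, for example 2710 CPM in Tert+ RT and 3249 CPM in Tert+ no RT libraries for complex I, while the mitochondrially encoded sum is higher after RT.

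In complex I the members that fell came from both the catalytic arm and the accessory shell. Ndufv1 (ENSMUSG00000037916, chr19:4007497-4012806, minus strand), which carries the NADH and flavin site, had 148, 141, 120.5 and 133 CPM in the Tert+ RT libraries, against 182, 218 and 190.3 CPM in the Tert+ no RT libraries, and 93.9, 149, 114 and 104 CPM in the Tert- RT libraries, against 141, 189 and 210.3 CPM in the Tert- no RT libraries. All RT values of Ndufv1 in Tert+ cells were below all of its no RT values, while in Tert- cells RT replicate 2 was above no RT replicate 1. Ndufv1 fell (log2 fold change -0.59 ± 0.12, edgeR adjusted p = 0.00597).

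Of the accessory subunits of complex I, which surround the core and aid its assembly and stability, 5 fell. Ndufa13, which also goes by the name GRIM-19 in work on cell death, ranged from 86.5 to 108 CPM with a median of 102 CPM over the 8 RT libraries, against from 80.4 to 182 CPM with a median of 163 CPM over the 6 no RT libraries. In Tert- no RT replicate 1 Ndufa13 was at 80.4 CPM, below all RT libraries, and the fall over both populations was -0.59 ± 0.15 (log2 ± SE, edgeR adjusted p = 0.0193), a call held in 10 of 14 fits that left out a library. Ndufa8 ranged from 50.8 to 83.3 CPM with a median of 60.5 CPM over the 8 RT libraries, against from 59.9 to 124 CPM with a median of 92.7 CPM over the 6 no RT libraries (adjusted p = 0.0403). Ndufc2 ranged from 35.7 to 54.4 CPM with a median of 46.0 CPM over the 8 RT libraries, against from 50.7 to 79.3 CPM with a median of 64.0 CPM over the 6 no RT libraries (adjusted p = 0.0454). In each of these members the RT median was below the no RT median and the ranges overlapped. Ndufa1, an X-linked subunit of the membrane arm, ranged from 35.4 to 74.7 CPM with a median of 57.2 CPM over the 8 RT libraries, against from 58.7 to 88.4 CPM with a median of 76.1 CPM over the 6 no RT libraries (adjusted p = 0.0468). Ndufa10 ranged from 82.9 to 117 CPM with a median of 100.1 CPM over the 8 RT libraries, against from 96.8 to 145 CPM with a median of 129 CPM over the 6 no RT libraries (adjusted p = 0.0473). The log2 fold changes of Ndufa8, Ndufc2, Ndufa1 and Ndufa10 were -0.53, -0.51, -0.44 and -0.36, and their calls were lost in at least 10 of 14 fits that left out a library. The other 28 tested members of complex I did not pass, with log2 fold changes up to 0.10. Among them Ndufs1, the largest iron-sulfur core subunit, was at 96.2 ± 4.51 CPM in Tert+ RT, against 97.7 ± 8.30 CPM in Tert+ no RT, and at 81.7 ± 12.9 CPM in Tert- RT, against 99.4 ± 11.5 CPM in Tert- no RT libraries (adjusted p = 0.371 over both).

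Both catalytic subunits of complex II, succinate dehydrogenase, fell, and all 4 members had a log2 fold change below 0. Sdha (ENSMUSG00000021577, chr13:74322254-74350280, minus strand), the flavoprotein that oxidises succinate in the citric acid cycle, had 429, 371, 419 and 421 CPM in the Tert+ RT libraries, against 482, 529 and 500.0 CPM in the Tert+ no RT libraries, and 413, 390.2, 364 and 362 CPM in the Tert- RT libraries, against 474, 564 and 555 CPM in the Tert- no RT libraries. The highest Sdha value after RT was below the lowest value without RT over both populations. Sdha fell over both populations (log2 fold change -0.39 ± 0.08, edgeR adjusted p = 0.00551) and within Tert- cells (log2 fold change -0.47 ± 0.11, edgeR adjusted p = 0.0427). The call within Tert- cells held in 3 of 14 fits that left out a library. It was lost with total count scaling and without the low count filter. The window of Sdha above held the NRF1 letters 3 times. The iron-sulfur subunit Sdhb ranged from 113 to 190.3 CPM with a median of 141 CPM over the 8 RT libraries, against from 143 to 250.2 CPM with a median of 211 CPM over the 6 no RT libraries, with overlap (log2 fold change -0.52 ± 0.12, edgeR adjusted p = 0.0133). The membrane anchor Sdhd did not pass, with 175 ± 23.4 CPM in Tert+ RT, against 177 ± 11.3 CPM in Tert+ no RT, and 127 ± 18.1 CPM in Tert- RT, against 165 ± 32.0 CPM in Tert- no RT libraries.

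In complex III, Uqcrc1 had the smallest adjusted p of all members. Uqcrc1 (ENSMUSG00000025651, chr9:108936633-108949623, plus strand), a core protein of the matrix arm, had 439, 351, 336 and 319 CPM in the Tert+ RT libraries, against 494, 658 and 685 CPM in the Tert+ no RT libraries, and 341, 328, 257 and 314 CPM in the Tert- RT libraries, against 409, 546 and 668 CPM in the Tert- no RT libraries. In each population all RT values were below all no RT values, and over both populations Tert+ RT replicate 1 was above Tert- no RT replicate 1. Uqcrc1 fell over both populations (log2 fold change -0.78 ± 0.12, edgeR adjusted p = 0.00162), within Tert+ cells (log2 fold change -0.76 ± 0.17, edgeR adjusted p = 0.0389) and within Tert- cells (log2 fold change -0.80 ± 0.17, edgeR adjusted p = 0.0354). The small subunits Uqcrq and Uqcr11 also fell. Uqcrq, which binds near the ubiquinone site, ranged from 84.2 to 115 CPM with a median of 103 CPM over the 8 RT libraries, against from 103 to 161 CPM with a median of 132 CPM over the 6 no RT libraries (log2 fold change -0.38 ± 0.11, edgeR adjusted p = 0.0289). Uqcr11 ranged from 51.2 to 67.7 CPM with a median of 59.9 CPM over the 8 RT libraries, against from 59.6 to 100.4 CPM with a median of 86.9 CPM over the 6 no RT libraries (log2 fold change -0.45 ± 0.13, edgeR adjusted p = 0.0329). The RT and no RT ranges of Uqcrq and of Uqcr11 overlapped, and each call held in 6 of 14 fits that left out a library and was lost with total count scaling.

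Not every complex III member passed as lower, although 7 of 8 had a log2 fold change below 0. The Rieske protein Uqcrfs1, which passes electrons to cytochrome c1, had 162, 174, 163 and 168 CPM in the Tert+ RT libraries, against 198, 186 and 205 CPM in the Tert+ no RT libraries, and 141, 156, 156 and 156 CPM in the Tert- RT libraries, against 158, 158 and 203 CPM in the Tert- no RT libraries. Its ranges did not overlap in either population, yet it did not pass over both (log2 fold change -0.21 ± 0.08, edgeR adjusted p = 0.116). The hinge protein Uqcrh (ENSMUSG00000063882, chr4:116066965-116075071, minus strand) ranged from 104 to 175 CPM with a median of 146 CPM over the 8 RT libraries, against from 99.6 to 141 CPM with a median of 115 CPM over the 6 no RT libraries, the opposite order, and did not pass (log2 fold change 0.30 ± 0.11, edgeR adjusted p = 0.0796). With total count scaling Uqcrh passed as higher (adjusted p = 0.0286), with DESeq2 also (0.0441), and without Tert- RT replicate 4 also (0.0315).

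**Figure D3:**
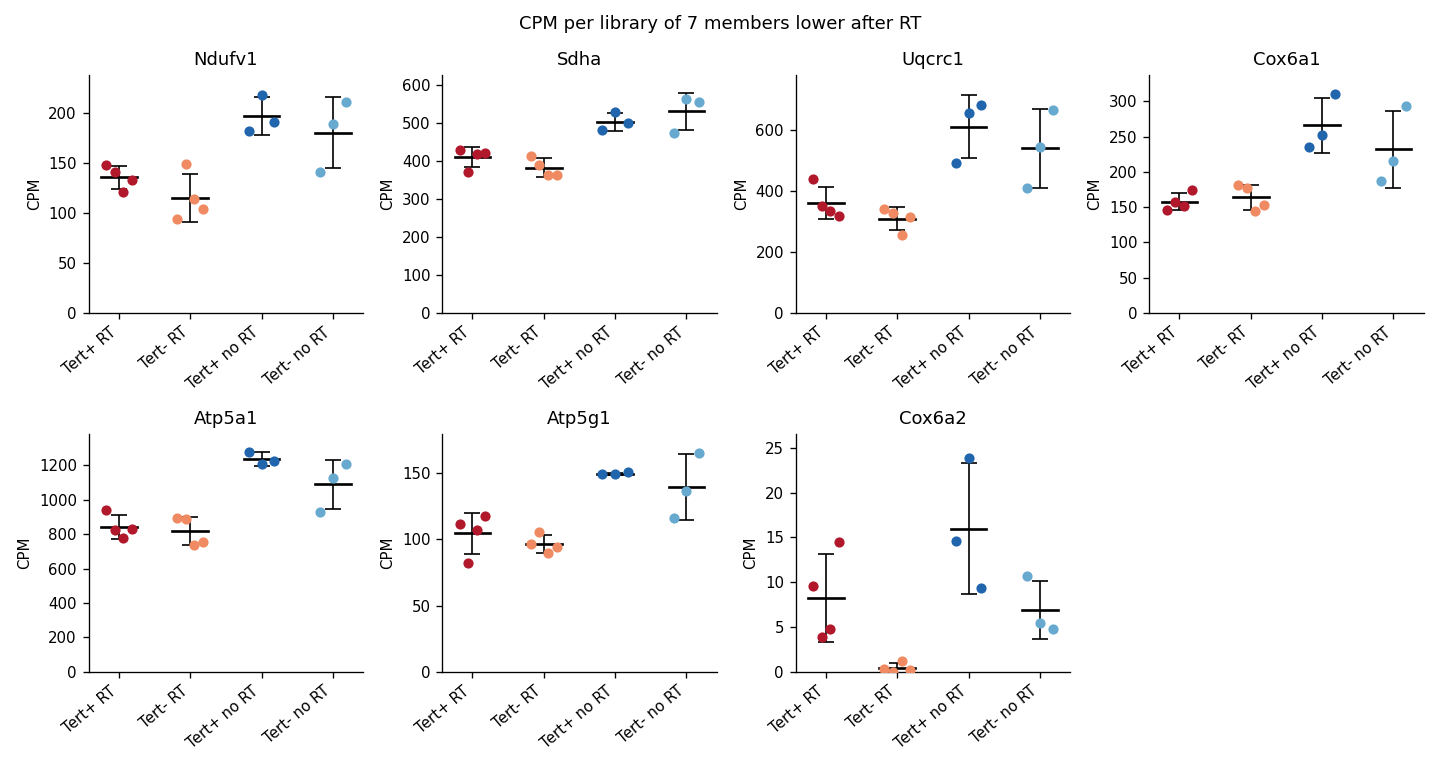
Points are the CPM of each library for 7 members that were lower after RT in each alternative setting, in 4 groups; bars are means with SD. The RT groups lie left of the no RT groups and are lower, for example 361 CPM in Tert+ RT and 612 CPM in Tert+ no RT libraries for Uqcrc1, and Cox6a2 lies near 0 in Tert- RT libraries.

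In complex IV both isoforms of subunit VIa fell. Cox6a1 (ENSMUSG00000041697, chr5:115345642-115348981, minus strand), the widely expressed form of subunit VIa, had 146, 157, 152 and 175 CPM in the Tert+ RT libraries, against 236, 252 and 310.2 CPM in the Tert+ no RT libraries, and 181, 178, 145 and 154 CPM in the Tert- RT libraries, against 187, 215 and 293 CPM in the Tert- no RT libraries. The highest Cox6a1 value after RT was below the lowest value without RT over both populations. Cox6a1 fell over both populations (log2 fold change -0.63 ± 0.11, edgeR adjusted p = 0.00302) and within Tert+ cells (log2 fold change -0.76 ± 0.16, edgeR adjusted p = 0.0293). Its muscle counterpart Cox6a2 (ENSMUSG00000030785, chr7:128205435-128206387, minus strand) was low throughout, with 9.58, 3.88, 4.78 and 14.5 CPM in the Tert+ RT libraries, against 14.7, 23.9 and 9.41 CPM in the Tert+ no RT libraries, and 0.363, 0, 1.19 and 0.173 CPM in the Tert- RT libraries, against 10.7, 5.42 and 4.72 CPM in the Tert- no RT libraries. It was at or below 1.19 CPM in all Tert- RT libraries and at 3.88 CPM or more in all others. Cox6a2 fell over both populations (log2 fold change -2.48 ± 0.54, edgeR adjusted p = 0.00862) and within Tert- cells (log2 fold change -4.00 ± 0.83, edgeR adjusted p = 0.0318), and in Tert+ cells it did not pass (log2 fold change -0.96 ± 0.71, edgeR adjusted p = 0.527). The muscle markers Acta1 and Myh4 had 0 counts in all libraries, and the 6 muscle markers summed to 3.14 to 9.92 CPM after RT, against 1.99 to 9.18 CPM without RT.

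The other 14 tested members of complex IV did not pass. Cox4i1, the regulatory subunit that is often used as a loading control, had 484, 425, 500.3 and 527 CPM in the Tert+ RT libraries, against 491, 488 and 465 CPM in the Tert+ no RT libraries, and 479, 461, 435 and 421 CPM in the Tert- RT libraries, against 398, 468 and 522 CPM in the Tert- no RT libraries. Its RT and no RT ranges overlapped in both populations (log2 fold change -0.02 ± 0.08, edgeR adjusted p = 0.925). Cox6b1 averaged 189 ± 13.7 CPM in Tert+ RT, against 206 ± 19.6 CPM in Tert+ no RT, and 177 ± 17.8 CPM in Tert- RT, against 193 ± 28.9 CPM in Tert- no RT libraries. The log2 fold changes were 0.02 for Cox7a2, -0.00 for Cox7b, -0.20 for Cox8a and -0.18 for Ndufa4, with standard errors of 0.11 to 0.13. Cox7a2l, which tethers complexes III and IV in supercomplexes, had 0.22 ± 0.15. The low isoforms Cox7a1, Cox8b and Cox6b2 had log2 fold changes of -0.34 ± 0.54, -0.35 ± 1.00 and -0.68 ± 1.15. With standard errors this wide, only a large change of their level could have passed.

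In complex V the alpha subunit, 1 of 3 genes for subunit c and coupling factor F6 fell. Atp5a1 (ENSMUSG00000025428), the alpha subunit of the catalytic head, had 939, 823, 777 and 832 CPM in the Tert+ RT libraries, against 1279.8, 1206 and 1227 CPM in the Tert+ no RT libraries, and 895, 887, 739 and 756 CPM in the Tert- RT libraries, against 931, 1129 and 1210.2 CPM in the Tert- no RT libraries. Its ranges did not overlap within either population, and Tert+ RT replicate 1 was above Tert- no RT replicate 1. Atp5a1 fell over both populations (log2 fold change -0.48 ± 0.09, edgeR adjusted p = 0.00293) and within Tert+ cells (log2 fold change -0.55 ± 0.12, edgeR adjusted p = 0.0345). Atp5b, the beta subunit that holds the catalytic sites, had 1153, 1280.0, 1412 and 1423 CPM in the Tert+ RT libraries, against 1862, 1432 and 1413 CPM in the Tert+ no RT libraries, and 1329.7, 1359.6, 1232 and 1114 CPM in the Tert- RT libraries, against 1253, 1431 and 1541 CPM in the Tert- no RT libraries. In Tert+ cells RT replicate 4 was above no RT replicate 3, and Atp5b did not pass (log2 fold change -0.21 ± 0.09, edgeR adjusted p = 0.157). Over Tert+ cells Atp5b was highest in no RT replicate 1, at 1862 CPM.

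Of the subunit c genes, Atp5g1 (ENSMUSG00000006057, chr11:96068852-96075670, minus strand) had 112, 82.4, 107 and 118 CPM in the Tert+ RT libraries, against 149, 149 and 151 CPM in the Tert+ no RT libraries, and 96.7, 105, 89.8 and 94.6 CPM in the Tert- RT libraries, against 116, 136 and 166 CPM in the Tert- no RT libraries. The ranges of Atp5g1 did not overlap within either population, and over both Tert+ RT replicate 4 was above Tert- no RT replicate 1. Atp5g1 fell (log2 fold change -0.52 ± 0.11, edgeR adjusted p = 0.00597), while Atp5g2 (log2 fold change -0.09 ± 0.14, edgeR adjusted p = 0.724) and Atp5g3 (log2 fold change -0.05 ± 0.12, edgeR adjusted p = 0.843) did not pass. Their differences from Atp5g1 were not tested. Atp5j, coupling factor F6 of the stalk, ranged from 82.9 to 127 CPM with a median of 110.4 CPM over the 8 RT libraries, against from 103 to 163 CPM with a median of 145 CPM over the 6 no RT libraries, with overlap (log2 fold change -0.41 ± 0.12, edgeR adjusted p = 0.0397). The call of Atp5j held in 4 of 14 fits that left out a library and was lost with total count scaling and without the low count filter. The other 14 tested members of complex V did not pass, with log2 fold changes of up to 0.26.

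Within single populations fewer members passed. In Tert+ cells 3 of 80 members fell after RT and 0 rose, against 0.873% of all genes tested that fell and 1.11% that rose. These were Cox6a1, Atp5a1 and Uqcrc1, the values of which are given above. Their calls held in 9, 8 and 6 of 14 fits that left out a library. The median log2 fold change of members was -0.21, against -0.00 for all genes tested. Below 0 were 65 of 80 members, against 50.1% of all genes, and an unadjusted p under 0.05 was reached by 13 of 80, against 18% of all genes. No member passed in Tert+ cells without RT replicate 2 or 3 or without no RT replicate 2 or 3, and 1 passed without RT replicate 4. Ranges did not overlap for 18 members lower and 1 higher in Tert+ RT (22.5% and 1.25%), against 8.25% and 7.28% of all genes tested. The higher member was Atp5l, subunit g of the membrane part of ATP synthase. In Tert- cells 4 of 80 members fell after RT and 0 rose, against 0.804% of all genes tested that fell and 0.817% that rose. They included Cox6a2, Uqcrc1 and Sdha, the calls of which held in 8, 7 and 3 of 14 fits that left out a library. The median log2 fold change of members was -0.32, against -0.02 for all genes tested. Below 0 were 73 of 80 members, against 50.8% of all genes, and an unadjusted p under 0.05 was reached by 26 of 80, against 18.8% of all genes. Ranges did not overlap for 12 members lower and 0 higher in Tert- RT (15% and 0%), against 9.22% and 9.70% of all genes tested. Without Tert- no RT replicate 1 the number that fell in Tert- cells was 19, and the median log2 fold change was -0.46. Without no RT replicate 3 the number was 0 and the median was -0.15. The number was also 0 without Tert- no RT replicate 2, without Tert- RT replicate 1, 2 or 4 and without Tert+ no RT replicate 2, 1 without Tert- RT replicate 3, and 2 without Tert+ RT replicate 1 or Tert+ no RT replicate 3.

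Whether the RT response differed between the populations was tested as the difference of both log2 fold changes. No member passed, with 0 higher and 0 lower, against 0% of all 15915 genes tested in either direction. At an unadjusted p under 0.05 there was 1 member of 80, against 3.63% of all genes, and DESeq2 and limma voom called 0 members. Among the smallest p-values were those of Cox6a2 (3.05 ± 1.09) and Uqcrq (0.36 ± 0.21) on the log2 scale with SE, each with an edgeR adjusted p of 1. The median difference over members was 0.11 with 57 of 80 above 0, against 0.01 and 51.1% for all genes tested, so the fall was not shown to differ between Tert+ and Tert- cells. The median standard error of the difference was 0.25 for members, which limits what this comparison could detect.

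Tert+ and Tert- cells did not differ in any member at the threshold, with or without RT. After RT 0 of 80 members were higher and 0 lower in Tert+, against 0.00628% of all genes tested in each direction. Most members lay to the same side of 0: 72 of 80 had a log2 fold change above 0 (the share over all genes was 49.4%), and the median was 0.18, against -0.00 for all genes tested. The medians by complex were 0.20 in complex I, 0.25 in complex II, 0.16 in complex III, 0.16 in complex IV and 0.12 in complex V. An unadjusted p under 0.05 was reached by 7 of 80 members, against 7.39% of all genes tested, and DESeq2 called 1 member and limma voom 0. Ranges did not overlap for 8 members higher in Tert+ and 0 lower (10% and 0%), against 2.43% and 2.46% of all genes tested. They included Atp5l, Cox6a2, Ndufa7, Ndufb3, Ndufs8, Uqcrfs1 and Uqcrq.

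Among the smallest p-values after RT were those of Cox6a2 and Sdhd. Cox6a2 had 9.58, 3.88, 4.78 and 14.5 CPM in the Tert+ RT libraries, against 0.363, 0, 1.19 and 0.173 CPM in the Tert- RT libraries (log2 fold change 4.25 ± 0.81, edgeR adjusted p = 0.186). It passed with DESeq2 (adjusted p = 1.89e-05) and with no other setting, with adjusted p up to 0.488. Sdhd had 177, 141, 189 and 193 CPM in the Tert+ RT libraries, against 152, 123, 109 and 122 CPM in the Tert- RT libraries (log2 fold change 0.47 ± 0.15, edgeR adjusted p = 0.459). Sdhd overlapped between the populations through Tert- RT replicate 1 and Tert+ RT replicate 2. Ndufs8 had a mean of 150.3 ± 12.3 CPM in Tert+ RT, against 119 ± 6.89 CPM in Tert- RT libraries (log2 fold change 0.33 ± 0.16, edgeR adjusted p = 0.673).

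Without RT, 0 of 80 members were higher and 0 lower in Tert+, against 0% and 0.0377% of all genes tested. An unadjusted p under 0.05 was reached by 0 of 80 members, against 4.50% of all genes tested, and DESeq2 and limma voom also called 0 members. The median log2 fold change was 0.07, against 0.01 for all genes tested, with 57 of 80 members above 0, against 50.8% of all genes. Ranges overlapped for all 80 members, against 4.04% of all genes tested that were higher and 4.83% that were lower in Tert+ without overlap. The median ran from -0.06 to 0.19 when single libraries were left out, so its sign rests on the libraries used. The members with the smallest p-values were Ndufa3 (log2 fold change 0.35 ± 0.21, edgeR adjusted p = 1), Cox6a2 (log2 fold change 1.20 ± 0.77, edgeR adjusted p = 1) and Cox8b (log2 fold change -2.32 ± 1.55, edgeR adjusted p = 1). Ndufa3 had 58.0, 92.6 and 72.8 CPM in Tert+ no RT, against 47.6, 64.2 and 64.3 CPM in Tert- no RT libraries, with overlap. For Cox8b, a muscle isoform, the values were 0.489, 0 and 0.835 CPM in Tert+ no RT, against 0.736, 0.524 and 5.46 CPM in Tert- no RT libraries, the highest being that of Tert- no RT replicate 3. The comparisons after RT and without RT use different libraries, but each shares its libraries with an RT comparison above.

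**Figure D4:**
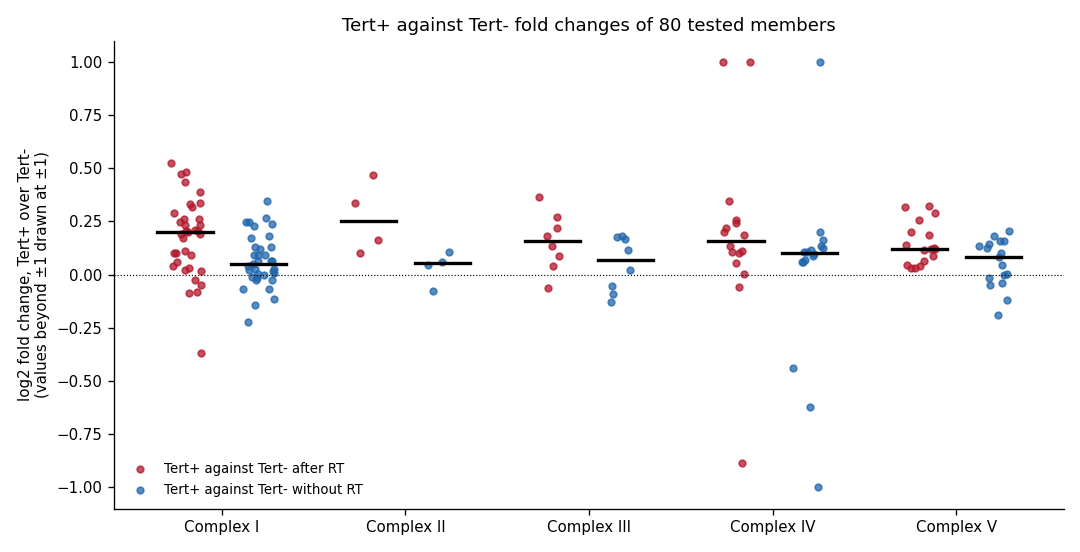
Points are log2 fold changes of Tert+ over Tert- for 80 tested members by complex, after RT (left in each pair) and without RT (right), with lines at the median; values beyond 1 in size are drawn at the edge. After RT the complex medians run from 0.12 to 0.25, and without RT from 0.05 to 0.10.

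The subunits encoded by mitochondrial DNA went the other way. Of 13 such genes 10 rose after RT averaged over both populations and 0 fell, against 6.36% of all genes tested that rose and 7.0% that fell. The median log2 fold change of the 13 was 1.33. Within Tert+ cells 8 of 13 rose, against 1.11% of all genes tested. Within Tert- cells 2 of 13 rose, against 0.817%, with log2 fold changes from -1.11 to 3.40. The summed level of the 13 genes was 16199, 22359.9, 23915 and 13362 CPM in the Tert+ RT libraries, against 9735, 4055 and 4014 CPM in the Tert+ no RT libraries. In Tert- cells the sum was 25093, 26046, 22300.5 and 10390.4 CPM after RT, against 11461, 9427 and 9492 CPM without RT. The ranges did not overlap in Tert+ cells, and in Tert- cells RT replicate 4 lay within the no RT range. The sum of mitochondrially encoded over nuclear encoded subunits was 1.48, 2.15, 2.15 and 1.20 in Tert+ RT, against 0.780, 0.308 and 0.308 in Tert+ no RT libraries. It was 2.42, 2.45, 2.38 and 1.16 in Tert- RT, against 1.14, 0.759 and 0.692 in Tert- no RT libraries. Within complex I, mt-Nd1 averaged 1759 ± 519 CPM in Tert+ RT, against 629.7 ± 270.1 CPM in Tert+ no RT, and 1711 ± 707 CPM in Tert- RT, against 944 ± 69.2 CPM in Tert- no RT libraries. In complex III, mt-Cytb (cytochrome b) had log2 fold change 1.33 ± 0.24, edgeR adjusted p = 0.00345, and in complex IV the smallest adjusted p was that of mt-Co2 (log2 fold change 1.61 ± 0.19, edgeR adjusted p = 0.000461). In complex V, mt-Atp6 had log2 fold change 1.31 ± 0.23, edgeR adjusted p = 0.0027. Without RT, 1 of 13 was above 0 in Tert+ against Tert- with 0 passing and a median of -0.76, and after RT 3 of 13 with 0 passing and a median of -0.08. As transcripts of mitochondrial DNA have nuclear copies, their counts are less certain.

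Genes that build, feed or import the respiratory chain were counted beside it in the averaged RT comparison. Of all genes tested there, 7.0% fell and 6.36% rose, with a median log2 fold change of -0.01. Whether the share of any of these lists differed from that of all genes was not tested. Of 16 complex I assembly factors 1 fell, Ndufaf8 (log2 fold change -0.68 ± 0.18, edgeR adjusted p = 0.0214), and 0 rose, with a median of -0.07. Of 10 assembly factors of complexes II and III and 5 of complex V, 0 passed, with medians of -0.17 and -0.27. Of 19 complex IV assembly factors 1 rose, the copper chaperone Cox17 (log2 fold change 1.56 ± 0.37, edgeR adjusted p = 0.014), with a median of -0.21. Of 14 genes for cytochrome c and ubiquinone synthesis 1 fell, Coq9 (log2 fold change -0.58 ± 0.14, edgeR adjusted p = 0.0165), and 1 rose, Coq8a (log2 fold change 0.45 ± 0.14, edgeR adjusted p = 0.0476), with a median of -0.23. Cyc1, the cytochrome c1 subunit of complex III that the name rule misses, did not pass (log2 fold change -0.24 ± 0.10, edgeR adjusted p = 0.126), and was singled out after its values were seen. Of 17 citric acid cycle genes 2 fell, Dlat of the pyruvate dehydrogenase complex (log2 fold change -0.65 ± 0.12, edgeR adjusted p = 0.00438) and malate dehydrogenase Mdh2 (log2 fold change -0.45 ± 0.13, edgeR adjusted p = 0.0368), with a median of -0.23.

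Of 77 mitochondrial ribosomal protein genes 8 fell and 0 rose, a share of 10.4%, against 7.0% of all genes tested that fell. Their median was -0.19, and the falls were led by Mrps27 (log2 fold change -0.87 ± 0.18, edgeR adjusted p = 0.00664) and Mrpl44 (log2 fold change -0.83 ± 0.21, edgeR adjusted p = 0.0178). Of 21 import genes 2 fell, Timm17b (log2 fold change -0.53 ± 0.13, edgeR adjusted p = 0.0133) and Timm13 (log2 fold change -0.53 ± 0.14, edgeR adjusted p = 0.024), with a median of -0.19. Of 16 regulators of mitochondrial biogenesis 1 rose, Polg2, the accessory subunit of the mitochondrial DNA polymerase (log2 fold change 1.01 ± 0.19, edgeR adjusted p = 0.00399), and 0 fell, with a median of 0.08. Within single populations the passing genes of these nuclear lists were Coq9 in Tert+ (log2 fold change -0.97 ± 0.20, edgeR adjusted p = 0.0293) and Polg2 in Tert- (log2 fold change 1.35 ± 0.27, edgeR adjusted p = 0.0297).

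**Figure D5:**
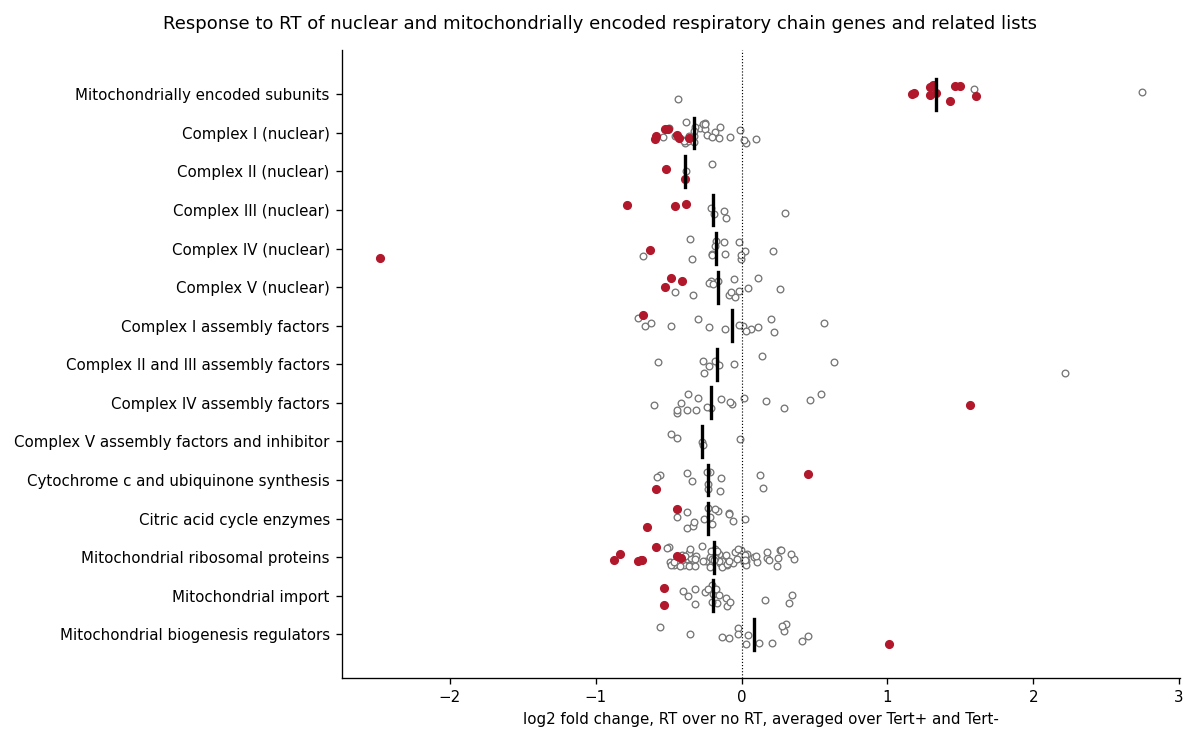
Points are log2 fold changes of RT over no RT averaged over Tert+ and Tert- for the genes of each list, filled where the adjusted p was under 0.05, with a line at each median. The mitochondrially encoded subunits have a median of 1.33, and the medians of complexes I to V run from -0.38 to -0.16.

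Several markers and library measures moved beside the RT comparison, and their part in the fall of the members was not tested. In the averaged comparison 7.0% of all genes tested fell and 6.36% rose. Of 8 germinal centre B cell markers 7 fell, and their sum was 110.3 to 144 CPM after RT, against 294 to 735 CPM without RT. Of 8 T cell markers 1 fell (12.5%), with sums of 86.1 to 380.4 CPM after RT, against 197 to 623 CPM without RT. Of 8 macrophage markers 2 fell and 0 rose in the averaged comparison, with 4 of 8 above 0. Within Tert+ cells 1 macrophage marker rose, Ms4a7 (log2 fold change 2.56 ± 0.58, edgeR adjusted p = 0.0372), and 0 fell, against 1.11% and 0.873% of all genes tested. The macrophage markers had sums of 103 to 199 CPM in Tert+ RT, against 119.7 to 283 CPM in Tert+ no RT, and 262 to 1226 CPM in Tert- RT, against 1587 to 1919 CPM in Tert- no RT libraries. Of the 8 B cell, 10 acinar and 10 epithelial markers 0 passed in either direction. The 4 endothelial markers, led by Pecam1, which B cells and macrophages also express, summed to 164 to 284 CPM after RT, against 175 to 260.0 CPM without RT. The 4 fibroblast markers summed to 0 to 12.7 CPM after RT, against 0 to 44.8 CPM without RT, and Pdgfra had 0 counts. All genes of mitochondrial DNA, ribosomal RNA included, took 1.13% to 2.86% of counts after RT, against 0.418% to 1.22% without RT. Genes shorter than 1 kb took 4.26% to 6.86% of counts after RT, against 4.47% to 5.87% without RT. The macrophage sums also separated Tert+ RT from Tert- RT libraries, beside the comparison of members between these groups.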

How the data were processed

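Per the labels, live EpCAM+ cells were sorted by tdTomato, RNA was extracted with an RNeasy kit, and 1 ng of RNA was made into each library by the Picelli protocol. HISAT2 and mm10 are named in the submitters' processing notes. The counting program and annotation are not given in the sources used here. The deposited table holds raw counts per gene, whole numbers with no normalization, and gene lengths. From these, edgeR 4.0.16 (R 4.3.3) was run with TMM scaling, filterByExpr on the 4 groups and a robust quasi-likelihood fit with 1 term per group over 14 libraries. P-values are two-sided and Benjamini-Hochberg adjusted over 15915 of 54532 genes, with a threshold of 0.05; standard errors come from the F statistic. There were 6 comparisons. Alternatives were other scalings, no filter, DESeq2 1.42.0, limma voom 3.58.1, replicate blocks and libraries left out. The fit was run on simulated independent libraries with log2 changes of 1 or 2 in size. Most falls of members were smaller, so that run does not speak for them. Depth was 5520412 to 15943597 counts per library. The members, lists and tests were chosen with earlier results of these data known. Named members are those past the threshold, the 2 highest per length in each complex, the smallest p-values where none passed, isoforms and core subunits. Uqcrh, Atp5l, Ndufa7 and Ndufb3 meet none of these rules and were named after their values were seen. A member is counted but not reported by name here. No library pair was near-identical (highest correlation 0.937). Promoter windows are from RefSeq (GRCm38.p6).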

Additional observations from a re-analysis of the deposited data

Results flagged for a closer look

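In 82 sets of 4 libraries (named members and complex sums in the RT groups), the highest or lowest library was set against the gap to the others by Dixon's test at its 95% level. Chance gives about 1 such library in 20 sets, and 3 were found in 82. Cox7a2l in Tert- RT replicate 4 was at 99.05 CPM, below 167.8 to 175.0 CPM in the other Tert- RT libraries. Uqcrfs1 in Tert- RT replicate 1 was at 141.1 CPM, below 155.5 to 156.5 CPM in the others. Cox7a1 in Tert- RT replicate 3 was at 6.88 CPM, above 2.93 to 3.26 CPM in the others.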

How the results depend on the processing

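The members that passed, and those named for the smallest p-values where none passed, kept their direction in every setting run. The median over members for Tert+ against Tert- without RT, 0.07 with no member past the threshold, changed sign to -0.06 without Tert- no RT replicate 1. For the RT effect averaged over both populations (17 members lower, 0 higher), total count scaling gave 10 lower and 1 higher, DESeq2 21 lower and 1 higher, and leaving out Tert+ RT replicates 3 and 4 together 9 lower; leaving out single libraries gave 9 to 27 lower and 0 to 1 higher. In Tert+ (3 lower), total count scaling gave 0, DESeq2 5, replicates 3 and 4 left out together 0, and single libraries left out 0 to 4. In Tert- (4 lower), total count scaling gave 1, no low count filter 2, DESeq2 12 and single libraries left out 0 to 19, with a median log2 fold change of -0.46 to -0.15. Total count scaling split all genes into 77 lower and 206 higher in Tert+ RT, against 139 and 176 with TMM, and 68 lower and 183 higher in Tert- RT, against 128 and 130. Over all genes DESeq2 called 1412 lower and 1585 higher in the averaged comparison, 430 and 627 within Tert+, and 585 and 617 within Tert-. Between populations DESeq2 called 1 member higher in Tert+ RT, and over all genes 58 lower and 51 higher after RT and 70 lower and 2 higher without RT. The complex IV sum in Tert+ no RT libraries was 2037 CPM under total count scaling, against 2118 CPM with TMM. The cause of these shifts was not tested. The replicate numbers of the titles were tried as a block: it left 8 members lower in the averaged comparison, 1 in Tert+ and 0 in Tert-. Correlations of same-numbered libraries' deviations ran from -0.05 to 0.05 after RT and from -0.00 to 0.12 without RT. For no RT replicates 1 and 2 they were 0.11 and 0.12, against at most 0.06 and -0.04 with another number. For no RT replicate 3 the order was reversed, with -0.00 against 0.10. The main fit did not take the numbers as a pairing, but these values do not exclude one. A block within each RT state changed no call between Tert+ and Tert-. At 3 to 4 libraries a group, the median standard error of members was 0.12 for the averaged RT effect and 0.25 for the difference of responses, and isoforms near 1 CPM could not be resolved.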
